A study of Rattus norvegicus with 7 samples.

Results

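Stat3, C/EBPδ and NF-κB are 3 transcription factors of the inflammatory and acute-phase response, and each is represented by 1 cDNA clone on the array. The clones were taken by their identifiers, RNABV84 for Stat3, RNABR21 for C/EBPδ and RNABM55 for NF-κB, and are 3 of the 6240 features printed. They were followed over all 7 arrays to see which factor was still raised later after injury and how the 3 moved together within an animal. The study made cerebral cortical contusions in male Sprague Dawley rats by dropping a weight on the exposed dura. Cortex of the impact area with its surroundings was taken 1 day post injury (dpi) from 3 rats and 4 dpi from 4 other rats. Total RNA of each ipsilateral, injured cortex was hybridised on 1 array against RNA of the contralateral, uninjured cortex of the same rat. Each array therefore holds 1 animal, and every value is a log2 ratio of injured over uninjured cortex, so that 1 stands for a doubling of RNA on the injured side.

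The control in every ratio was the opposite hemisphere of a contused brain, and sham-operated animals were not measured on arrays. A ratio gives no level, so the cortical identity of the tissue could not be checked against absolute marker levels. Of 5 neuronal markers, all had values on the 3 arrays of 1 dpi and 4 also on all 4 arrays of 4 dpi, while the GABA-A receptor subunit delta had a value at 4 dpi on replicate 2 alone. In dissected cortex, more cells that express a gene and more RNA per cell cannot be told apart. Ipsilateral RNA carried the dye Cy5 on replicates 1 and 2 of 1 dpi and on replicates 2 and 3 of 4 dpi, and Cy3 on the other 3 arrays.

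Stat3 is a latent factor that cytokine receptors of the interleukin-6 family activate through Janus kinases, and it drives acute-phase genes and reactive astrocytes. C/EBPδ is a basic leucine zipper factor that is itself strongly induced by inflammatory cytokines and that binds promoters of acute-phase genes. NF-κB is a family of dimers held in the cytoplasm by inhibitors of the IκB type until signals such as interleukin-1 or tumour necrosis factor release them. The 3 factors share many targets and can induce each other, and Stat3 and NF-κB are mainly controlled after transcription, by phosphorylation, release and nuclear entry, which arrays of RNA do not measure.

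Promoter sequences are shown because the 3 factors were raised together at 1 dpi. In RefSeq (assembly GRCr8) the window of 250 bases before and 30 bases after the start of Stat3 lies at chr10:86363330-86363609 and that of Nfkb1 at chr2:226805433-226805712, both on the minus strand. The list of clones calls RNABM55 only nuclear factor kappa B, without a subunit. The text of the study names Nfkb1 among its genes of the response to stimulus at 1 dpi. Nfkb1 is therefore shown as 1 gene of the family, and its match to the clone was not checked. For C/EBPδ the gene is Cebpd. Capitals mark a match to an NF-κB motif.
Stat3: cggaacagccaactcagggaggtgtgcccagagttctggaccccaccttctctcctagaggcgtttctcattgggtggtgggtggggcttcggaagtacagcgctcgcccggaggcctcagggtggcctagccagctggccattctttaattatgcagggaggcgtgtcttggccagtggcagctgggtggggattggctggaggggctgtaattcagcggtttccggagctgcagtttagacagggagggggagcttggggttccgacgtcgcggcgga
Nfkb1: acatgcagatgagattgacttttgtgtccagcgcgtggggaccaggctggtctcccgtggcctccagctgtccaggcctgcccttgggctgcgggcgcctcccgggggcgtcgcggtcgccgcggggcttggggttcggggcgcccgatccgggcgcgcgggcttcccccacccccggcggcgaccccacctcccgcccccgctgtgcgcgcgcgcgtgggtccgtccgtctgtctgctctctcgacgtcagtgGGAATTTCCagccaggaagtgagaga
Both of these windows were searched on both strands for TTCNNNGAA (STAT), TTGCNNAA (C/EBP) and GGNNTTTCC (NF-κB). Nfkb1 held 1 match, GGAATTTCC, on its own strand, with its first base 5 bases after the start and no match of another motif over it, and Stat3 held none. Over 33469 rat promoters of the same length, 5.72% held the NF-κB motif, 8.42% the STAT motif and 10.1% the C/EBP motif. These are matches of letters and not measured binding.

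Of the 6240 features, between 3993 and 5208 were measured per array of 1 dpi and between 2332 and 5082 per array of 4 dpi, since absent spots and those under 2 times background carry no value. The median of every array lay within 0.01 of 0, and the median absolute deviation was between 0.24 and 0.36. Over all shared features, replicate 1 of 4 dpi correlated with the arrays of 1 dpi at r of 0.01 to 0.42 and with the other arrays of 4 dpi at 0.49 to 0.74. The corresponding values for replicate 2 of 4 dpi were 0.55 to 0.64 and 0.49 to 0.73. Replicate 1 of 4 dpi therefore correlated less with the early arrays than replicate 2 did. Where a call for a named gene changes without replicate 1, that value is given. Dye moves with these correlations. Replicate 1 had ipsilateral RNA in Cy3. Its r was 0.16 and 0.01 with replicates 1 and 2 of 1 dpi (Cy5) and 0.42 with replicate 3 (Cy3). Its highest r, 0.74, was with replicate 4 of 4 dpi (Cy3). Dye and animal cannot be told apart here.

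At 1 dpi all 3 factors were upregulated on every array. Stat3 had log2 ratios of 1.39, 1.99 and 1.16 on replicates 1, 2 and 3. Its mean was 1.51 ± 0.43 (SD, n = 3 arrays), a 2.86-fold higher RNA signal in the injured cortex, with a standard error of 0.16 and an adjusted p of 0.000207 in limma. Replicate 2 was the highest array for Stat3, and even the lowest, replicate 3, was above the log2 limit of 0.7 that was used for a call together with an adjusted p of 0.02 or less.

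For C/EBPδ the ratios were 1.52, 1.63 and 2.01. The mean of 1.72 ± 0.25 (SD, n = 3) equals 3.29-fold, with a standard error of 0.13 and an adjusted p of 2.52e-05 in limma. Here replicate 3 was the highest array, the same animal in which Stat3 was lowest. NF-κB was the least variable of the 3, with 1.09, 1.12 and 1.26 and a mean of 1.16 ± 0.09 (SD, n = 3), or 2.23-fold (standard error 0.12, limma adjusted p = 0.000182).

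Among the 4952 features tested at 1 dpi, C/EBPδ ranked 32 from the top by its mean, Stat3 39 and NF-κB 67. Called upregulated were 3.9% of the features tested, 193 in 4952, and downregulated 1.51%. All 3 members were among the 193, but they were chosen with earlier results of these same arrays known. Their calls are therefore no independent evidence of a rise. Within the single arrays, the 3 factors lay between percentiles 97.8 and 99.6 of all values. All 3 calls held with SAM (significance analysis of microarrays) in place of limma, with a dye term, with scaled arrays and without any 1 array.

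**Figure D1:**
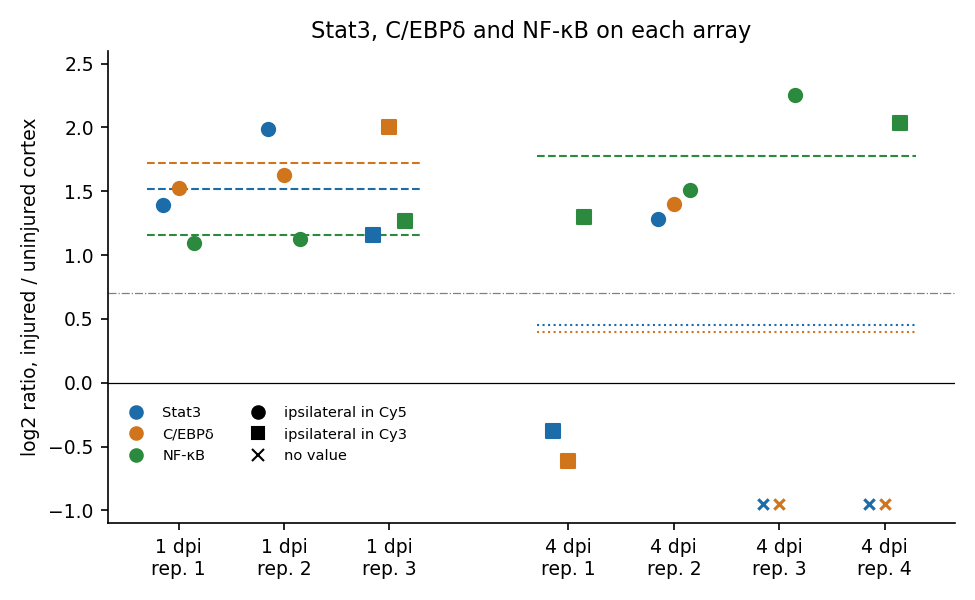
Log2 ratio of injured over uninjured cortex (vertical axis) of Stat3, C/EBPδ and NF-κB on each of the 3 arrays of 1 dpi and 4 arrays of 4 dpi (horizontal axis). Circles are arrays with ipsilateral RNA in Cy5 and squares those with it in Cy3, crosses at the foot mark arrays with no value, dashed lines are means over 3 or 4 arrays, dotted lines means over 2, and the dash-dotted line is 0.7. NF-κB lies between 1.30 and 2.25 on all arrays of 4 dpi, whereas Stat3 and C/EBPδ are below 0 on replicate 1, above 1.2 on replicate 2 and without a value on replicates 3 and 4.

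At 4 dpi NF-κB was the factor with a value on every array, and all of its values were high. The ratios were 1.30, 1.51, 2.25 and 2.03 on replicates 1 to 4. The mean of 1.77 ± 0.44 (SD, n = 4), or 3.42-fold, had a standard error of 0.15 and an adjusted p of 0.000173 in limma, and ranked 10 among the 3191 features tested, which were those measured on 3 or 4 arrays. Within each array NF-κB lay between percentiles 99.2 and 99.5. Of the features tested at 4 dpi, 2.63% were called upregulated and 0.376% downregulated. Without replicate 1 the mean was 1.93, and the call of NF-κB at this time point held under all 12 alternatives run.

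Stat3 and C/EBPδ could not be followed in the same way, because only replicates 1 and 2 of 4 dpi measured them. Stat3 stood at -0.38 on replicate 1 and 1.29 on replicate 2, and C/EBPδ at -0.61 and 1.40. The means over these 2 arrays, 0.45 ± 1.18 for Stat3 and 0.40 ± 1.43 for C/EBPδ (SD, n = 2), describe neither animal. On replicate 2 Stat3 lay within its range of 1 dpi and C/EBPδ just under its own, at percentiles 98.8 and 99.0 of the array, and on replicate 1 they were in the lower tail, at percentiles 8.27 and 2.01.

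With fewer than 3 values neither gene entered the test at 4 dpi. When features measured on 2 arrays were admitted as well, 2.53% of 4151 features were called upregulated, and neither Stat3 (limma adjusted p = 0.455) nor C/EBPδ (0.601) was among them. The missing values fell on the arrays with the fewest values, replicates 3 and 4. Of the 3803 features that all arrays of 1 dpi measured, 560 likewise had values on replicates 1 and 2 of 4 dpi alone, and 2190 had values on all 4. A spot without a value was absent or under the limit of signal over background, which sets no bound on its ratio.

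The change from 1 dpi to 4 dpi was tested directly, in 1 fit of all arrays. For NF-κB the difference was 0.61 (standard error 0.21), with an adjusted p of 0.118 in limma, and so did not pass the limit of 0.05, although the highest array of 1 dpi (1.26) was below the lowest of 4 dpi (1.30). Over the 3188 features tested, 3.48% were called higher and 1.51% lower at 4 dpi. The call depended on choices. With the arrays scaled to a common spread the difference was 0.75 (limma adjusted p = 0.0128), and without replicate 1 of 4 dpi 0.77 (limma adjusted p = 0.0372), both past the limit.

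For Stat3 the difference of -1.06 and for C/EBPδ that of -1.32 rest on the 2 discordant arrays of 4 dpi. Tested over features with at least 2 values at each time, of which 2.9% were called in either direction, the limma adjusted p was 0.232 for Stat3 and 0.177 for C/EBPδ. Other fits, which admitted features with at least 1 value at each time, left out 1 of these arrays. Without replicate 2 of 4 dpi the differences became -1.89 for Stat3 and -2.33 for C/EBPδ. Without replicate 1 they were -0.23 and -0.32. Each of these values rests on 1 animal at 4 dpi, whose spread cannot be estimated, so they do not show whether the factors were lower. Dye moves with these 2 arrays, since ipsilateral RNA was in Cy3 on replicate 1 and in Cy5 on replicate 2, and for these genes at 4 dpi dye and animal cannot be told apart. At 1 dpi, on the array with ipsilateral RNA in Cy3, Stat3 was lowest and C/EBPδ highest.

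The factors were also compared with each other within an animal, where a shift common to all ratios of an array cancels. At 1 dpi Stat3 minus C/EBPδ averaged -0.21 ± 0.61 (SD, n = 3, exact permutation p = 0.75), and its sign changed between arrays. Stat3 minus NF-κB was 0.35 ± 0.49 (SD, n = 3, exact permutation p = 0.5). C/EBPδ exceeded NF-κB on all 3 arrays, by 0.43 to 0.74 and on average by 0.56 ± 0.16 (SD, n = 3, exact permutation p = 0.25). These two-sided tests of 3 pairs cannot go below 0.25 with 3 arrays, and all have an adjusted p of 0.75. Since the clones are different probes, such a difference compares changes and not levels of RNA.

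The order of the ratios at 1 dpi differed from animal to animal. C/EBPδ was highest on replicates 1 and 3 and Stat3 on replicate 2, and NF-κB was lowest on replicates 1 and 2 and Stat3 on replicate 3. At 4 dpi NF-κB was highest on both arrays that measured all 3. Stat3 minus NF-κB was -1.68 on replicate 1 and -0.22 on replicate 2, and C/EBPδ minus NF-κB was -1.91 and -0.11. Stat3 minus C/EBPδ was closer to 0 on replicate 1, at 0.23, and about as small on replicate 2, at -0.12. No test was made over 2 arrays.

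The gap between replicates 1 and 2 of 4 dpi was large for Stat3 and C/EBPδ among all features, and small for NF-κB. Replicate 2 minus replicate 1 was 1.66 for Stat3, a gap that 14 of the 4013 features with both values exceeded. For C/EBPδ it was 2.02, exceeded by 10 features, and for NF-κB 0.21, exceeded by 878. The median gap over all of these features was -0.01.

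A gap in the same direction was seen over the genes of 1 dpi as a whole. Of the 193 features called upregulated at 1 dpi, 138 had values on both arrays, and their median gap was 0.49. The arrays differ in dye as well as in animal, and these cannot be told apart for this gap. On replicate 1, 52 of the 138 were below 0 and 29 above 0.7, whereas on replicate 2 only 4 were below 0 and 75 above 0.7. Stat3 and C/EBPδ belong to the 24 that were above 0.7 on replicate 2 and below 0 on replicate 1, and NF-κB to the 26 above 0.7 on both. No array measured all 193. The median over those measured was between 0.97 and 1.09 on the arrays of 1 dpi (155 to 192 features). On replicates 1 to 4 of 4 dpi it was 0.15, 0.74, 0.80 and 0.51, over 140, 176, 68 and 93 features, so these medians cover different subsets.

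**Figure D2:**
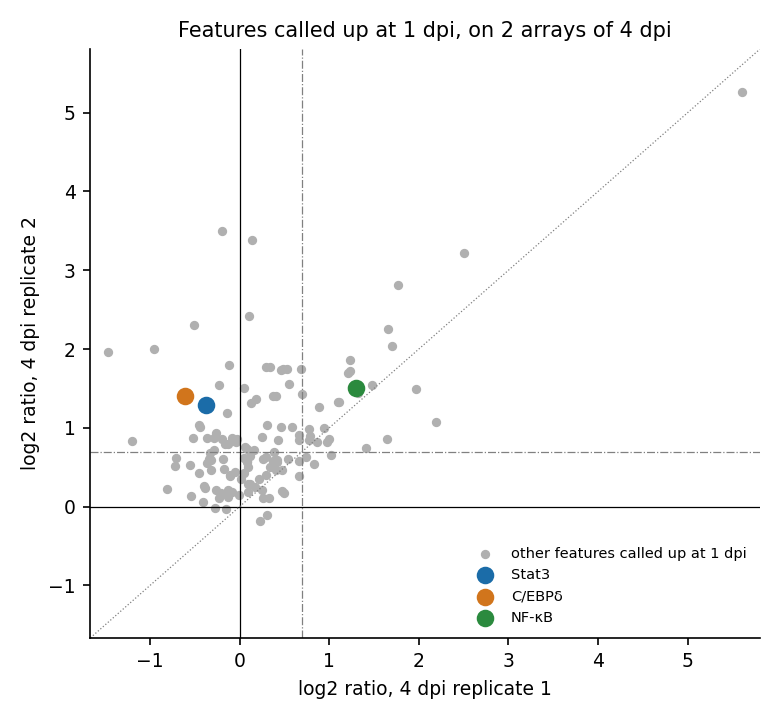
Each point is 1 of the 138 features called upregulated at 1 dpi that have a value on replicate 1 (horizontal axis, log2 ratio) and replicate 2 (vertical axis, log2 ratio) of 4 dpi. Dash-dotted lines mark 0.7 and the dotted line equal values. Stat3 (-0.38, 1.29) and C/EBPδ (-0.61, 1.40) lie upper left, with high values on replicate 2 alone, and NF-κB (1.30, 1.51) lies near the line of equal values.

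NF-κB was also 1 of few features raised throughout. Of the 193 features called upregulated at 1 dpi, 93 could be tested at 4 dpi, and 35 were called at both times. Of the 2190 features that all 7 arrays measured, 8 were above 0.7 on every array, and NF-κB was among these 8.

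The features whose log2 ratios were most like those of each member were found by the root mean square difference over the arrays on which the member had a value. For Stat3, among 3523 features compared over 5 arrays, the nearest was tissue plasminogen activator (RNABP80), a serine protease that activates plasminogen, at a distance of 0.28. Retinoic acid receptor alpha (RNABN09), a ligand-activated nuclear receptor, followed at 0.39 and metallothionein (RNABO13), a metal-binding stress protein, at 0.41. C/EBPδ came 4th, at 0.43, and NF-κB 98th, at 0.86.

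The neighbours of C/EBPδ were largely shared. Tissue plasminogen activator was nearest at 0.38, metallothionein next at 0.41 and Stat3 3rd at 0.43, with NF-κB 88th at 0.96. Tissue plasminogen activator had 1.64, 1.60 and 1.39 at 1 dpi and -0.27, 0.94, 0.62 and 0.44 at 4 dpi, below 0 on replicate 1 alone. Metallothionein ran from 1.40 to 1.60 at 1 dpi and stood at -0.71, 0.62, 1.77 and 1.06 at 4 dpi, again with replicate 1 as the only array below 0. Both were measured on replicates 3 and 4 of 4 dpi, where Stat3 and C/EBPδ were not, and both were above 0 there.

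NF-κB had a different set of neighbours, over 7 arrays and 2189 features. They were the complement C1q C chain (RGIAJ90), a recognition component of the classical pathway made by microglia and macrophages, at 0.36, melanocyte-specific gene 1 (RGIAG34), a transcriptional cofactor, at 0.47 and vimentin (RNABM67), an intermediate filament protein of reactive astrocytes and other cells, at 0.49. C1q C ran from 0.64 to 0.82 at 1 dpi and from 1.24 to 2.04 at 4 dpi. Vimentin ran from 1.07 to 1.94 and from 1.70 to 2.78. Its difference (4 dpi minus 1 dpi) of 0.94 was not called (limma adjusted p = 0.0742), but was without replicate 1 of 4 dpi (1.14, limma adjusted p = 0.0183) or replicate 3 of 1 dpi (1.22, 0.0311). Melanocyte-specific gene 1 was between 1.25 and 2.11 on all arrays. All 3 were above 1.2 on replicate 1 of 4 dpi. Since that array entered every distance, the values of a member's neighbours there follow in part from how they were chosen. These distances are descriptions over arrays that share animals, dyes and processing.

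**Figure D3:**
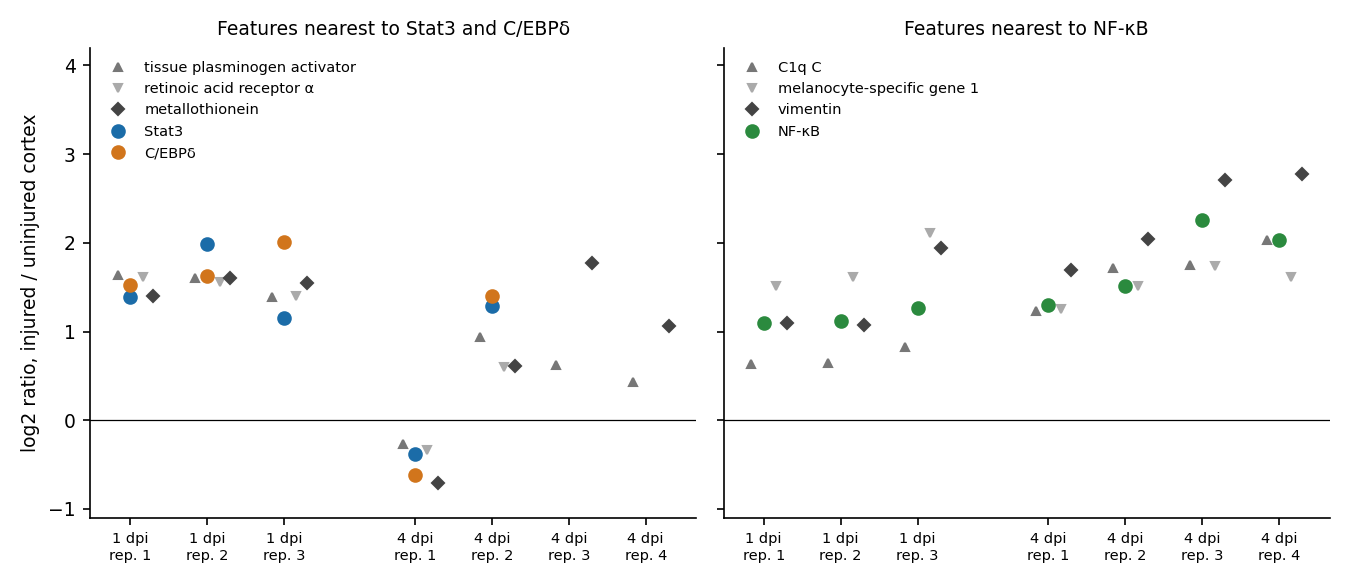
Log2 ratio of injured over uninjured cortex (vertical axis) on each array (horizontal axis) for Stat3 and C/EBPδ with their nearest features (left) and for NF-κB with its nearest features (right), with points shifted sideways within an array to keep them apart. The left-hand genes all fall below 0 on replicate 1 of 4 dpi, with values from -0.71 to -0.27, and the right-hand genes are all above 1.2 there, on an array that was among those used to choose them.

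Other genes of these pathways were taken from lists of clones named by the study. Since the study chose those names on the same arrays, their counts are no independent evidence of direction. Of 11 other transcription factors and cofactors, 7 were called upregulated (3.9% of all features) and 1 downregulated (1.51% of all features) at 1 dpi, with a median of 0.99 against 0.01 over all features. The immediate early factor c-fos (RNACF11) had 2.51, 1.77 and 0.70, but was not called without replicate 2 (1.61, limma adjusted p = 0.0201). Its partner c-jun (RGIAK48) had a mean of 1.14 ± 0.40, the stress factor ATF-4 (RNACA21) 0.86 ± 0.03, the v-myc homolog (RNACB54) 1.47 ± 0.67, retinoic acid receptor alpha 1.53 ± 0.11 and p53 (RNABM89) 0.99 ± 0.18 (SD, n = 3 each). The circadian D site albumin promoter binding protein (RNABX44) was the one called down, at -1.21 ± 0.54 (SD, n = 3). Of the others, the CCAAT-binding subunit CBF-A1 (RNABK20) had 0.66 ± 0.13, mrg1 0.11 ± 0.21 and the nuclear receptor COUP gamma (RGIAK08) -0.69 ± 0.12 (SD, n = 3 each), which was called down without replicate 3 (-0.76).

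At 4 dpi 8 of these 11 could be tested, and 2 were called, both upregulated (2.63% of all features up and 0.376% down). They were melanocyte-specific gene 1, at 1.53 ± 0.21 (SD, n = 4), and its relative mrg1 (RNACE49), at 0.94 ± 0.19 (SD, n = 4). The median of the 8 was 0.11 against -0.01 over all features. As with Stat3 and C/EBPδ, c-fos was below 0 on replicate 1 (-0.95) and high on replicate 2 (2.00). On replicate 1 c-jun (-0.18), ATF-4 (-0.41), retinoic acid receptor alpha (-0.34) and p53 (-0.72) were below 0 too. The median over all features of that array was 0.001, so a value below 0 is common there. The value of c-jun lay within the array's median absolute deviation of 0.26. In the limma test of the difference, c-jun and ATF-4 were lower and mrg1 higher at 4 dpi, 3 of 8 tested, where 3.48% of all features were called higher and 1.51% lower. The call of c-jun was lost without replicate 1 (adjusted p = 0.148) or 2 (0.13) of 1 dpi, and that of mrg1 without replicate 1 of 1 dpi (0.0642).

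The list of acute-phase and survival genes, many of them known targets of 1 or more of the 3 factors, gave 8 called upregulated and 1 downregulated of 11 at 1 dpi, with a median of 1.03, where 3.9% and 1.51% of all features were called. Over the 5 clones with a value on all 3 arrays the median was 0.39. The metalloproteinase inhibitor TIMP-1 (RGIAQ65) was highest, with 3.43, 3.25 and 3.47. The protease inhibitor CPI-26 (RNABP40) had 1.33 and 2.78 on the 2 arrays with a value, and complement C3 (MKAH22) 0.78 and 1.28. The adhesion molecule ICAM-1 (RNACA35) had 1.08 on both of its arrays, the apoptosis regulator of CASP8 and FADD type (RNABA90) 2.15 and 1.17 and the survival gene bcl-2 (RNACF64) 0.96 and 0.92. Metallothionein and the cell cycle gene cyclin D1 (RNABS77) complete the 8. Angiotensinogen (RGIAJ86), the precursor of angiotensin, was called down at -1.17 ± 0.29 (SD, n = 3). Alpha-2-macroglobulin (RGIAO94), at 0.32 ± 0.13, and beta-2-microglobulin (RNABI87), at 0.39 ± 0.23 (SD, n = 3 each), were not called.

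At 4 dpi 6 of the 11 could be tested and limma called 2 upregulated (2.63% of all features), with a median of 1.18 that covers only these 6. SAM called TIMP-1 as well, and without replicate 1 limma also called TIMP-1, metallothionein (1.15, adjusted p = 0.00746) and beta-2-microglobulin (0.88, adjusted p = 0.002). Alpha-2-macroglobulin, a broad protease inhibitor of the rat acute phase, had 1.20, 1.74, 1.83 and 2.10, all above its highest value of 1 dpi (0.40), and was higher at 4 dpi by 1.40 (limma adjusted p = 0.00258). Its ratio on replicate 1 was thus raised like that of NF-κB. CPI-26 had -0.19, 3.50, 2.56 and 3.28 (limma adjusted p = 0.018), and the call was lost without replicate 2, 3 or 4. TIMP-1 had -0.51, 2.31, 2.26 and 2.65 and was not called (limma adjusted p = 0.0324), but without replicate 1 its mean was 2.40 (limma adjusted p = 8.78e-06), and its difference (4 dpi minus 1 dpi) went from -1.71 (limma adjusted p = 0.114) to a smaller -0.98 that was called lower (limma adjusted p = 0.00503). Complement C3 (-0.14 on replicate 1), ICAM-1 (-0.45 on replicate 1) and bcl-2 (-0.52, its only value) shared with Stat3 and C/EBPδ both the value below 0 on replicate 1 and the lack of values on replicates 3 and 4. Values below 0 are common on replicate 1, where the median over all features was 0.001. Cyclin D1, which also had no value on those 2, was above 0 on both of the others (1.02 and 0.66).

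Among 5 clones of upstream signalling and nuclear transport, 3 were called upregulated and 1 downregulated at 1 dpi, against 3.9% and 1.51% of all features, with a median of 0.84. The interleukin-1 receptor accessory protein (RNACA10), a signalling subunit of the receptor upstream of NF-κB, had 1.04, 0.53 and 0.95. RAN (RNABM38), the GTPase of nuclear import and export, had 1.42, 1.45 and 1.24, and MAP kinase-activated protein kinase 2 (RNABR42) 1.15 and 0.95 on 2 arrays. MEKK1 (RNABI85), a kinase upstream of MAP kinases, was called down at -0.85 ± 0.33 (SD, n = 3), though not without replicate 1 (-0.67). Prothymosin alpha (RNABM91), at 0.68 ± 0.13 (SD, n = 3), was under the limit of 0.7, but was called up without replicate 1 (0.76). At 4 dpi only 2 of the 5 could be tested and 0 were called by limma in either direction (2.63% of all features up and 0.376% down). The median per array was then 0.03, 0.50, -0.01 and -0.20 on replicates 1 to 4.

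Markers of other cell types were examined on the same arrays. Of 6 macrophage and microglia markers, 5 were called upregulated at 1 dpi, where 3.9% of all features were, and all 5 that could be tested at 4 dpi, against 2.63%. In the test of the difference 3 of 5 were higher at 4 dpi, against 3.48%. At 1 dpi the call of C1q C was lost without replicate 3 and that of C1q β without replicate 2. At 4 dpi that of the class III Fc gamma receptor was lost without replicate 2 (limma adjusted p = 0.075) or 3 (0.0485), and without replicate 1 its difference (4 dpi minus 1 dpi) went from 0.38 (limma adjusted p = 0.572) to 0.77 (0.011), a call. Of the 3 differences called, that of C1q β was lost without any 1 array of 1 dpi and that of C1q C without replicate 1 of 1 dpi. Macrophage expressed gene 1 (RNABF77) had 0.42 ± 0.38 (SD, n = 3) at 1 dpi, not called, and MHC class II DM beta (RNABR27) had 0.94 and 1.43 on 2 arrays. Their median per array was between 0.64 and 0.92 at 1 dpi and was 1.16, 1.60, 1.75 and 2.04 on replicates 1 to 4 of 4 dpi, where NF-κB had 1.30, 1.51, 2.25 and 2.03. Both were thus lower on all arrays of 1 dpi than on any of 4 dpi. Osteoactivin (RGIAR28), a glycoprotein of phagocytes, had the highest mean of the markers, at 3.34 ± 0.63 (SD, n = 4) at 4 dpi. Of 5 neuronal markers, 1 was called upregulated (cholecystokinin) and 1 downregulated at 1 dpi (1.51% of all features down), and 3 of the 4 tested were called downregulated at 4 dpi (0.376%). CDCrel-1A (RGIAN17), a septin, was among them at -0.80 ± 0.22 (SD, n = 4). Of these 3, brain-enriched guanylate kinase-associated protein 1 was not called without replicate 3 (-0.69), and the Na+K+ transporting ATPase alone was lower in the test of the difference, 1 of 4 tested against 1.51% of all features. The median over the neuronal markers was between -0.58 and -0.31 per array at 1 dpi and between -1.09 and -0.67 at 4 dpi. The part of either cell type in the ratio of NF-κB was not tested. On replicate 1 of 4 dpi, where Stat3 and C/EBPδ were below 0, the median of the macrophage markers (1.16) was the lowest of that time. The class III Fc gamma receptor was at 0.05 there, against 1.51, 1.74 and 1.58 on replicates 2 to 4. The median of the neuronal markers was -0.77. Whether the tissue content of that array bears on Stat3 and C/EBPδ was not tested.

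**Figure D4:**
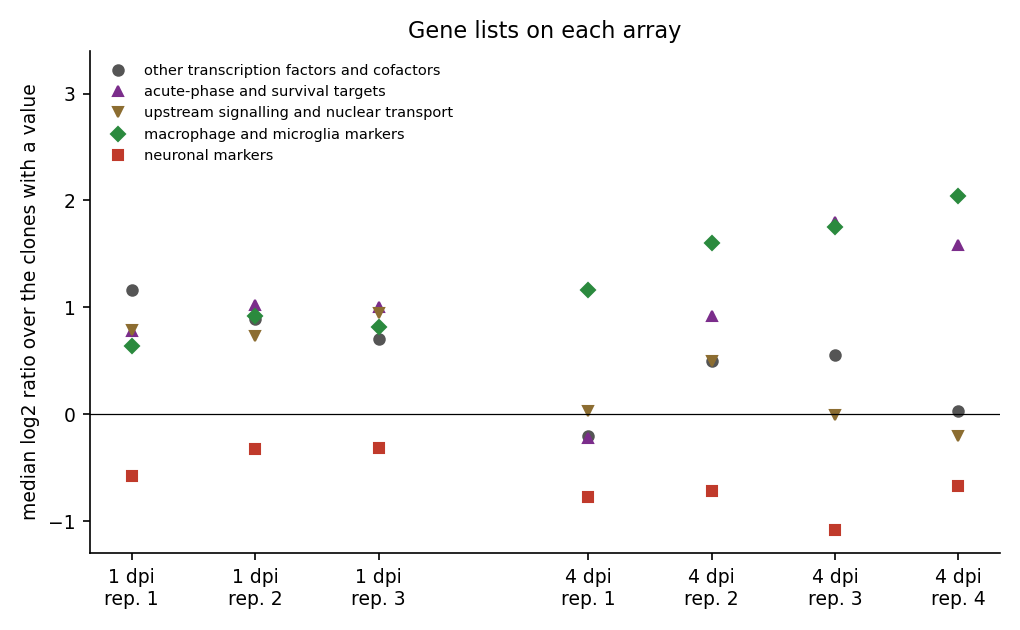
Median log2 ratio over the clones with a value (vertical axis) for 5 lists of genes on each array (horizontal axis). Macrophage and microglia markers are above 1.1 and neuronal markers below -0.6 on every array of 4 dpi, while other transcription factors (-0.21) and acute-phase and survival genes (-0.22) are below 0 on replicate 1 of 4 dpi and above 0 on the other 6 arrays. Upstream signalling genes are at 0.03 on replicate 1 of 4 dpi and at -0.01 and -0.20 on replicates 3 and 4.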

How the data were processed

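Time point, replicate number and dye of each array come from its labels, and 0 value columns were without a sample. After scanning, the authors subtracted local background, dropped absent spots and those under 2 times background, inverted dye-swapped ratios, normalised by Lowess and deposited log2 ratios. Depth is unknown for such ratios, and the number of arrays limits their precision. Scaling between arrays is not given in the sources used here.

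Means were tested against 0 and between times with limma 3.58.1 (R 4.3.3) over all features, with Benjamini-Hochberg adjustment. Features needed values on 2 of 3 arrays (1 dpi) and 3 of 4 (4 dpi). Pairs of members were tested by exact sign flips. Python 3.11.15, pandas 2.3.3, numpy 2.4.6 and matplotlib 3.10.9 were used. In simulated ratios with 200 features changed by 2, limma recovered 92% at 1 dpi (4952 features), 99.5% at 4 dpi (3191) and 100% for the difference (3188, 7 false calls in 207). Alternatives were SAM, a dye term, a replicate block, centring, scaling, other limits and each array left out.

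Names come from the study's lists by clone ID. Of 247 listed clones on the array 238 were used, and 9 differed by over 0.2 (log2) from their listed fold changes. Members and lists were chosen with earlier results of these data known. The text names members, all listed clones and the 3 nearest features of each member. Animals differ between arrays, so p-values measure spread between animals.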

Additional observations from a re-analysis of the deposited data

Results flagged for a closer look

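Of 43 named features examined, 10 were called different between 1 dpi and 4 dpi and 1 further gene differed in sign without a test. Over all features tested, 3.48% were higher and 1.51% lower at 4 dpi. In the limma test of 4 dpi minus 1 dpi, 4 genes were lower at 4 dpi, with differences of -0.94 for c-jun (adjusted p = 0.0364), -1.02 for ATF-4 (0.00258), -1.11 for tissue plasminogen activator (0.0173) and -0.71 for the Na+K+ transporting ATPase (0.0214). Higher at 4 dpi were mrg1 by 0.83 (0.00923), alpha-2-macroglobulin by 1.40 (0.00258), angiotensinogen by 0.99 (0.00635), C1q β by 1.00 (0.0372), C1q C by 0.99 (0.00923) and osteoactivin by 1.97 (0.00583). The calls of c-jun, tissue plasminogen activator, C1q β, C1q C, mrg1 and the ATPase were each lost without replicate 1 of 1 dpi. Those of c-jun, tissue plasminogen activator and C1q β were also lost without replicate 2 of 1 dpi, and that of C1q β without replicate 3 of 1 dpi. For bcl-2 both arrays of 1 dpi were above 0 and the only array of 4 dpi below 0, a difference of -1.46 that was not tested.

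In 3 of 28 groups of 4 arrays, a single array lay far from the rest, which chance gives in about 1 in 20 groups. All 3 were replicate 1 of 4 dpi, with TIMP-1 at -0.51, beta-2-microglobulin at -0.0551 and the class III Fc gamma receptor at 0.0484. NF-κB was not among them, and Stat3 and C/EBPδ, with 2 values at 4 dpi, could not be examined.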

How the results depend on the processing

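At 1 dpi the calls of all 3 members held under all 11 alternatives, with means from 1.27 to 1.69 for Stat3, 1.58 to 1.82 for C/EBPδ and 1.10 to 1.19 for NF-κB. At 4 dpi NF-κB was called under all 12, at 1.61 to 1.93. Its difference between the times became a call with scaled arrays (0.75) and ranged from 0.45 to 0.77 with 1 array left out. Those of Stat3 and C/EBPδ ranged from -1.89 to -0.23 and from -2.33 to -0.32 with 1 array left out, alternatives chosen after the data had been seen. Stat3 minus C/EBPδ at 1 dpi changed sign without replicate 3 (0.12) and ranged from -0.49 to 0.12.

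With 0.7 required on every array, 112 features were called up and 26 down at 1 dpi and 35 and 1 at 4 dpi, while scaling gave 20 down at 4 dpi. SAM called 188 and 74 at 1 dpi and 85 and 13 at 4 dpi, and held all calls of the members. With 1 array left out, 121 to 196 were up and 51 to 103 down at 1 dpi, and 56 to 81 up and 3 to 11 down at 4 dpi. Differences then numbered 30 to 131 higher and 7 to 64 lower. With a value on at least 1 array of each time they were 59 and 25, and at an adjusted p of 0.1 lower ones numbered 103.

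Replicates of the same number were different animals, and their deviations correlated at -0.17, 0.01 and -0.27, so the numbers do not pair the arrays. With the replicate block the difference of NF-κB was 0.53 (limma adjusted p = 0.244), and 24 features were higher and 6 lower.

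Taken as a mean over clones, the other transcription factors stood at 0.75 and upstream signalling at 0.62 at 1 dpi, and the neuronal markers at -0.50 at 4 dpi. Acute-phase and survival clones with a value on all arrays had a median of 0.39 at 1 dpi. The cause of these changes was not tested. Stat3 and C/EBPδ have 2 values at 4 dpi, which limits what can be said of them there.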
